A study of Mus musculus with 21 samples.

Results

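Epithelial-mesenchymal transition (EMT) is the change in which epithelial cells give up their junctions and take on a mesenchymal form. The 10 genes described here encode transcription factors on both sides of it: the repressors and inducers Zeb1, Zeb2, Snai1, Snai2, Twist1, Twist2 and Prrx1, and the epithelial factors Grhl2, Ovol1 and Ovol2. They are the entries of the deposited gene count table whose Ensembl identifiers map to these symbols, 10 of 48440 genes. All 10 were among the 21237 genes that passed the filter on low counts.

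The study sequenced RNA of 3 mouse cell lines after Esrp2-as, a long noncoding RNA antisense to the splicing factor gene Esrp2, had been lowered or raised. M6 and M27H4 were derived from mammary gland tumours of C3(1)SV40 TAg mice, a model with a promoter-driven SV40 T antigen. The third line, 3T3-L1, consists of preadipocytes. M6 control (n = 2) was compared with M6 after gapmer-mediated Esrp2-as knockdown (n = 2), a gapmer being a chimeric antisense oligonucleotide that here carried locked nucleic acids. M27H4 (n = 3 and 3) and 3T3-L1 (n = 2 and 2) carried an empty vector or overexpressed Esrp2-as. The labels call all 3 control groups empty vector controls, also in M6, where the knockdown used an antisense oligonucleotide, and they name no control gapmer. The labels call the replicates biological but do not say that they were separate cultures, so p-values measure the spread between these samples only. Each line is 1 cell line, so a difference between lines is a difference between these lines and not between cell types.

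ZEB and SNAI proteins are zinc finger repressors that bind E-box sequences in the promoters of epithelial genes such as Cdh1, while TWIST proteins are basic helix-loop-helix factors and PRRX1 is a homeodomain factor of mesenchymal cells. GRHL2 and the OVOL zinc finger proteins maintain epithelial genes, and each is known to repress Zeb1 or Zeb2. ZEB factors and microRNAs of the miR-200 family repress each other, the microRNAs through sites in the 3' untranslated regions (UTRs) of Zeb1 and Zeb2.

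The mature microRNAs of this family fall into 2 seed groups, shown here because their sites set Zeb1 and Zeb2 apart from the other 8 genes. Sequences are from RefSeq (GRCm38.p6), with the seed (bases 2 to 8) in capitals.
mmu-miR-200b-3p: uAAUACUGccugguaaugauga
mmu-miR-200c-3p: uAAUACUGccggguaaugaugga
mmu-miR-429-3p: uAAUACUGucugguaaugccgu
mmu-miR-200a-3p: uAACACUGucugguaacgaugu
mmu-miR-141-3p: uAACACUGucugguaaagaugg

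The letters complementary to these seeds, CAGTATT and CAGTGTT, were counted on the sense strand of the longest annotated 3' UTR of each gene (GENCODE M21, GRCm38). CAGTATT occurs in 13.2% and CAGTGTT in 17.1% of 20979 genes. Zeb1 has 5 and 4 matches in a 3' UTR of 2401 bases, and Zeb2 has 5 and 4 in 4941 bases. At least as many matches occur in 0.0286% of genes for CAGTATT and 0.248% for CAGTGTT. The 3' UTRs of all these genes had a median length of 954 bases, and the shares are not matched for length. Snai1 has 1 and 0, Snai2 has 1 and 1, and Grhl2 has 0 and 1, while Twist1, Twist2, Prrx1, Ovol1 and Ovol2 have none. The first 2 matches of each kind in Zeb2 are printed with the site in capitals. They lie on the minus strand of chromosome 2 in GRCm38, at chr2:44988163-44988191, chr2:44988098-44988126, chr2:44988347-44988375 and chr2:44987815-44987843, in that order.
Zeb2 base 393: ctaccatacatCAGTATTttattattatt
Zeb2 base 458: ctacagtgcatCAGTATTacgattcctca
Zeb2 base 209: aaaattttgtaCAGTGTTaaggcctaaaa
Zeb2 base 741: ccatccttgtaCAGTGTTcagagggtaac
The number is the position of the match, counted from the first base of the 3' UTR. A match of letters is a description and was not measured as a binding site.

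Of the promoters, RefSeq windows of 250 bases before to 50 after the start site were at hand for Zeb2 (4 windows), Snai1, Twist1, Twist2, Prrx1 and Ovol2. The E-box letters CACCTG or CAGGTG, which are each other's reverse complement, occur in 20.2% of all 32851 windows. Among the 9 windows of these 6 genes only that of Snai1 holds them, 126 bases before its start site. It is printed because SNAI proteins bind these letters, at chr2:167538022-167538121 (GRCm38.p6, plus strand), with the E-box in capitals.
Snai1 promoter: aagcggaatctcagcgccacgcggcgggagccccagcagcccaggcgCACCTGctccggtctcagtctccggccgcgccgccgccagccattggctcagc

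Counts per column ran from 34892461 to 138313667, and technical replicates were summed to 14 biological replicates of 34892461 to 328493417 counts. Levels are counts per 1e6 counts (CPM) of the effective library size. Esrp2-as (1810019D21Rik) was at 2.69 CPM ± 0.379 (SD, n = 2) in M6 controls and 0.689 ± 0.229 (n = 2) after knockdown, which did not pass the test (edgeR adjusted p = 0.363). It rose from 0.958 ± 0.267 to 47.7 ± 27.6 (n = 3) in M27H4 and from 0.303 ± 0.0743 to 40.6 ± 7.32 (n = 2) in 3T3-L1. Luminal mammary markers (Krt8, Krt18, Krt19, Epcam, Cdh1, Elf5, Esr1) summed to 2930 to 3951 CPM in M6 controls, 189.5 to 307.2 in M27H4 controls and 14.94 to 20.06 in 3T3-L1 controls, with Elf5 below 1 CPM in each. Basal mammary markers (Krt5, Krt14, Krt17, Trp63, Acta2) summed to 1355 to 2186, 15.26 to 37.01 and 615.3 to 641.0 CPM in the same order. Of these, Acta2, also among the mesenchymal genes read below, was higher in 3T3-L1 than in M6 (log2 difference 8.66, edgeR adjusted p = 0.0229). Fibroblast and preadipocyte markers (10 genes) summed to 44.14 to 64.22, 898.1 to 1095 and 5863 to 6326 CPM in the same order of lines. Among them, Pdgfra, Pdgfrb and Thy1 were called higher in M27H4 than in M6. Col1a1, Col1a2, Col3a1 and Lum were not called (edgeR adjusted p from 0.121 to 0.674). Of 4 endothelial markers, Cdh5 and Tie1 had 0 counts in the controls of M6 and M27H4, while Kdr was above 1 CPM on average in M27H4, where the list summed to 22.26 to 32.2 CPM against 0.228 to 0.415 in M6. Of 4 leukocyte markers, Cd3e had 0 counts in the controls of both lines and Cd68 was above 1 CPM on average, with sums of 1.097 to 2.356 CPM in M6 and 1.576 to 2.007 in M27H4. The part of such transcripts in the differences between lines was not tested. By these sums M6 was epithelial, with luminal and basal markers. M27H4, also labelled as a mammary tumour line, held fewer epithelial and more fibroblast transcripts in sum than M6. Whether such transcripts came from a share of the cells or from less RNA per cell cannot be told apart in bulk RNA.

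Column names end in a code, called lane code here, that moves with some of the low values. One code, called the M6 code here, holds 4 columns, all M6, and another, the M27H4 code, holds 2 columns, all M27H4. The other 3 codes hold 5 columns each from all 3 lines. A normalised table not used here has 1 more column of the M6 code that matches no sample. Replicate 1 of both M6 groups and of both M27H4 groups came only from these codes, so for M27H4 replicate and code cannot be told apart. The same holds for 3T3-L1, where same-numbered replicates of both groups came from the same shared codes. M6 replicate 2 was counted under both kinds of code.

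**Figure D1:**
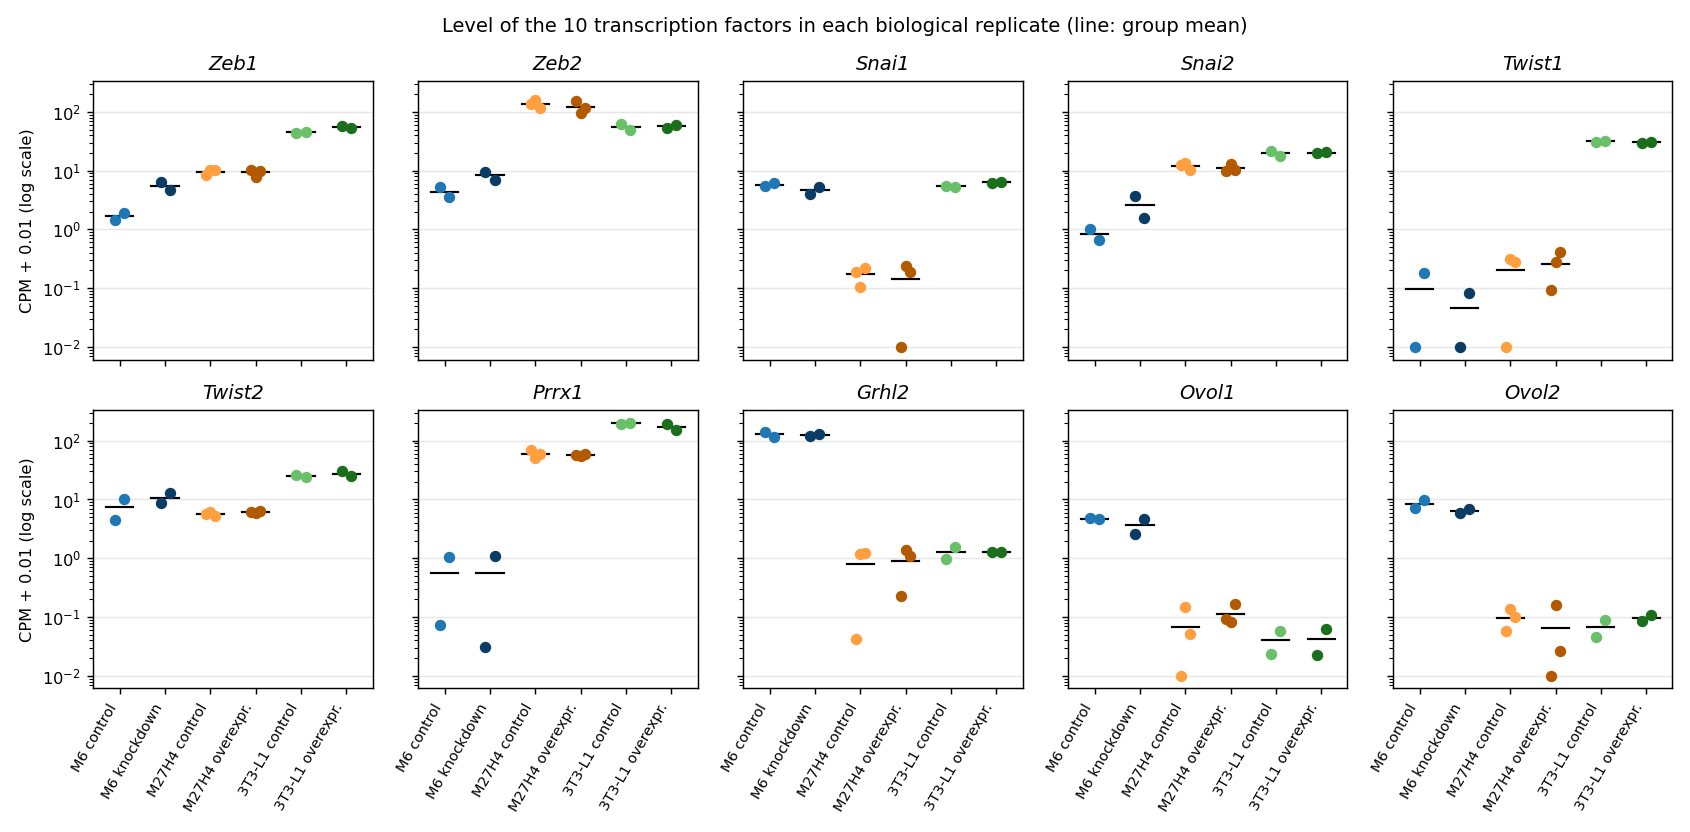
Level of each of the 10 genes in CPM + 0.01 (log axis) by group. Points are biological replicates and the black line is the group mean. Grhl2, Ovol1 and Ovol2 sit high only in the M6 groups, Zeb2 is highest in M27H4, and Twist1 is highest in 3T3-L1.

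The first comparison asked how the 3 lines differ in these factors before any treatment. M6 controls held the epithelial factors and, per kilobase of exon, little of the repressors other than Snai1 and Twist2. M27H4 controls held Zeb2, Snai2 and Prrx1 and almost no Snai1. 3T3-L1 controls held 7 of the 7 mesenchymal factors above 5 CPM. Of the 10 genes, 4 were higher and 4 lower in M27H4 than in M6 (edgeR, Benjamini-Hochberg adjusted p under 0.05), where 15.2% of all genes tested were higher and 15.0% lower. Against M6, 3T3-L1 had 6 higher and 3 lower, beside 20.5% and 18.9% of all genes. Against M27H4, 3T3-L1 had 4 higher (18.9% of all genes) and 1 lower (17.8%).

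**Figure D2:**
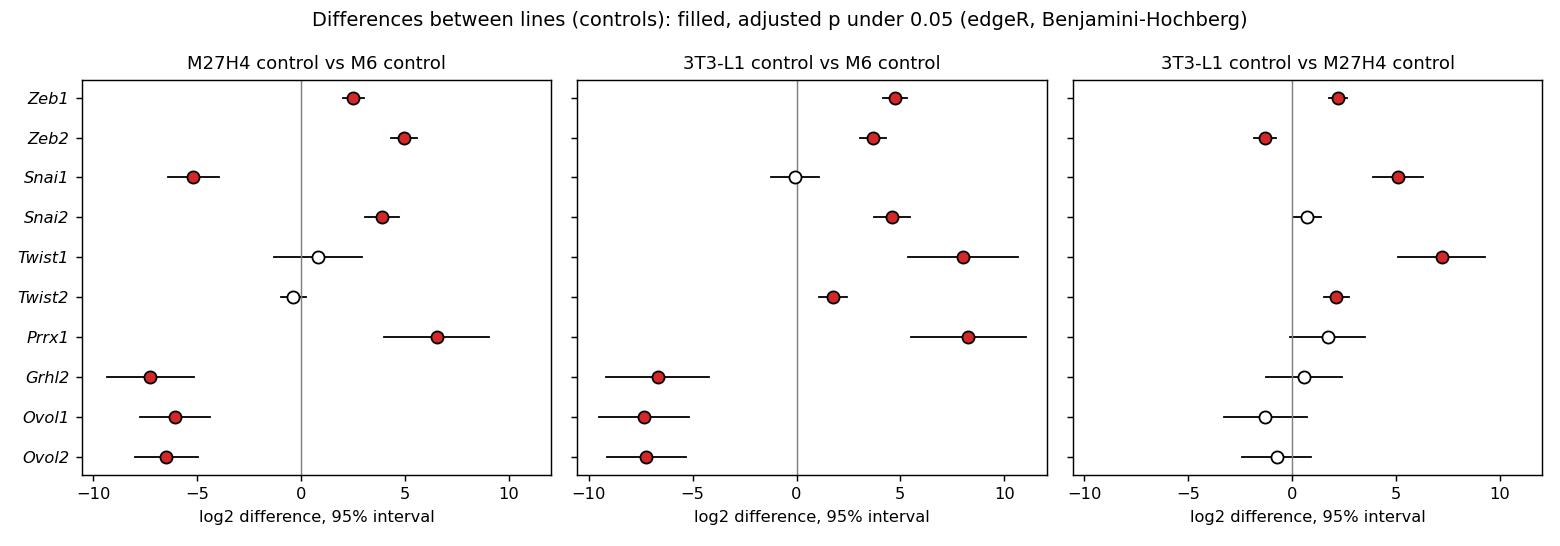
Log2 difference between the control groups of 2 lines for each gene, with its 95% interval. Filled points have an edgeR adjusted p under 0.05. Grhl2, Ovol1 and Ovol2 lie left of 0 in both comparisons with M6, and Zeb1, Zeb2, Snai2 and Prrx1 lie right of it.

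Zeb1 (ENSMUSG00000024238) increased stepwise over the 3 lines. Its level was 1.43 and 1.89 CPM in M6 controls, 8.39, 10.3 and 10.2 in M27H4 controls, and 44.5 and 45.9 in 3T3-L1 controls. No replicate of one line reached the range of another. The log2 difference was 2.53 (SE 0.229, adjusted p = 2.36e-06, edgeR) for M27H4 over M6 and 2.23 (SE 0.202, adjusted p = 2.2e-06) for 3T3-L1 over M27H4.

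Zeb2 (ENSMUSG00000026872, chr2:44983632-45117395, minus strand, GRCm38) followed another order, with M27H4 above 3T3-L1. M6 controls held 5.18 and 3.61 CPM, M27H4 controls 134.8, 157.0 and 117.0, and 3T3-L1 controls 61.5 and 49.6. The 3 lines did not overlap. Zeb2 was 31.2-fold higher in M27H4 than in M6 (log2 difference 4.96, SE 0.299, edgeR adjusted p = 1.22e-07) and lower in 3T3-L1 than in M27H4 (log2 difference -1.30, 2.45-fold, adjusted p = 0.000986). The 2 ZEB genes thus differed in which line held more of them.

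Snai1 (ENSMUSG00000042821, chr2:167538195-167542814) was at like levels in the epithelial line and the preadipocyte line, and nearly missing from M27H4. It held 5.40 and 6.09 CPM in M6 controls and 5.49 and 5.35 in 3T3-L1 controls. In M27H4 controls it held 0.179, 0.0943 and 0.212 CPM, from 11, 18 and 26 counts. The log2 difference was -5.18 (SE 0.564, edgeR adjusted p = 1.17e-05) for M27H4 against M6 and 5.10 (SE 0.562, adjusted p = 1.19e-05) for 3T3-L1 against M27H4. Between 3T3-L1 and M6 it was -0.08 (95% interval -1.24 to 1.07, adjusted p = 0.923), an interval that leaves room for changes of over 2-fold in either direction.

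Snai2 (ENSMUSG00000022676), also called Slug, had the same order of lines as Zeb1. M6 controls held 1.01 and 0.656 CPM, M27H4 controls 12.6, 13.2 and 10.2, and 3T3-L1 controls 21.6 and 18.0. It was 14.7-fold higher in M27H4 than in M6 (log2 difference 3.88, SE 0.379, edgeR adjusted p = 4.61e-06). The step from M27H4 to 3T3-L1, 0.72 (SE 0.307), did not pass the test (adjusted p = 0.0847), although the replicates did not overlap. It passed with limma voom (adjusted p = 0.0211) and in a fit of those 2 groups alone (0.0252).

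Twist1 (ENSMUSG00000035799) held 31.0 and 31.8 CPM in 3T3-L1 controls and was near 0 in the other lines. M27H4 controls held 0, 0.304 and 0.269 CPM and M6 controls 0 and 0.172. These overlapped, and M27H4 was not called against M6 (log2 difference 0.82, edgeR adjusted p = 0.585). The log2 difference of 3T3-L1 was 7.21 (SE 0.95, edgeR adjusted p = 0.000151) over M27H4 and 8.03 (SE 1.195, adjusted p = 0.000314) over M6. All 4 M6 columns of the M6 code held 0 Twist1 counts of 233162050, which allows a level of up to 0.0129 CPM by counting error. The 3 M6 columns of shared codes held 13 to 40 counts. With the M6 columns of the M6 code only, Twist1 was called higher in M27H4 than in M6 (adjusted p = 0.038). Its fitted size rests on M6 controls with 0 counts and is not given. Without M6 control replicate 2, which also leaves 0 counts, it was not called (0.179). Twist2 (ENSMUSG00000007805) was present in every line. It held 4.56 and 10.1 CPM in M6 controls, 5.72, 6.07 and 5.27 in M27H4 and 26.1 and 23.8 in 3T3-L1. M6 and M27H4 overlapped and did not pass the test (log2 difference -0.37, adjusted p = 0.366), while 3T3-L1 was above both, by 2.13 (SE 0.283, adjusted p = 5.74e-05, edgeR) over M27H4 and 1.76 over M6 (SE 0.32, adjusted p = 0.000657). Without M6 control replicate 1, at 4.56 CPM, Twist2 was called lower in M27H4 than in M6 (-0.83, adjusted p = 0.0185).

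Prrx1 (ENSMUSG00000026586) was abundant in M27H4 and 3T3-L1. M27H4 controls held 70.0, 50.6 and 59.9 CPM and 3T3-L1 controls 191.5 and 203.5, against 0.0621 and 1.05 in M6 controls. Prrx1 was higher than in M6 by a log2 difference of 6.55 in M27H4 (SE 1.13, edgeR adjusted p = 0.00161) and 8.26 in 3T3-L1 (SE 1.23, adjusted p = 0.000501). The 2 M6 controls differed from each other by more than 10 times. Within M6 control replicate 2, the column of the M6 code held 6 Prrx1 counts (0.0899 CPM of the column total), and the columns of shared codes held 105 (0.851 CPM) and 212 (1.53 CPM). The 3.28-fold step from M27H4 to 3T3-L1 (log2 difference 1.71, SE 0.802) had an adjusted p of 0.128, although the replicates did not overlap. It passed with limma voom (0.00158) and in a fit of those 2 groups (0.000199).

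The 3 epithelial factors moved as 1 block. Grhl2 (ENSMUSG00000022286), a Grainyhead factor that activates junction genes, held 140.0 and 117.3 CPM in M6 controls, 0.0325, 1.17 and 1.21 in M27H4 and 0.96 and 1.53 in 3T3-L1. Its log2 difference from M6 was -7.25 (SE 0.943, edgeR adjusted p = 0.000247) in M27H4 and -6.70 (SE 1.10, adjusted p = 0.000898) in 3T3-L1. Ovol1 (ENSMUSG00000024922) held 4.87 and 4.57 CPM in M6 controls and at most 0.136 CPM in any control of the other lines. Ovol2 (ENSMUSG00000037279), which represses Zeb1 in epithelia, held 7.21 and 9.73 CPM in M6 controls and at most 0.126 elsewhere. The differences of M27H4 from M6 were -6.06 for Ovol1 and -6.48 for Ovol2 (adjusted p = 5.21e-05 and 1.17e-05, edgeR). Between M27H4 and 3T3-L1 none of the 3 passed the test, with log2 differences of 0.55 for Grhl2, -1.29 for Ovol1 and -0.75 for Ovol2.

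The low levels of these 3 genes outside M6 also moved with the lane code. Grhl2 held 2 and 8 counts in the 2 M27H4 columns of the M27H4 code, 0.105 CPM pooled, and 88 to 218 counts in the 6 columns of shared codes, 1.19 CPM pooled. Ovol2 held 0 and 3 counts against 2 to 30, and Ovol1 0 and 3 against 5 to 19. The part of the lane code in these values was not tested. With only the columns of the M6 and M27H4 codes, which leaves 1 M27H4 control assumed to vary like the other groups, the same 8 genes were called between M27H4 and M6, in the same directions. The log2 differences in that fit were 2.50 for Zeb1, 4.82 for Zeb2, -4.90 for Snai1, 3.86 for Snai2, 9.78 for Prrx1, -11.93 for Grhl2 and -7.28 for Ovol2 (edgeR adjusted p from 0.00109 to 0.0205). Ovol1 was called as well, with 0 counts in that M27H4 control, so its fitted size is not given.

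**Figure D3:**
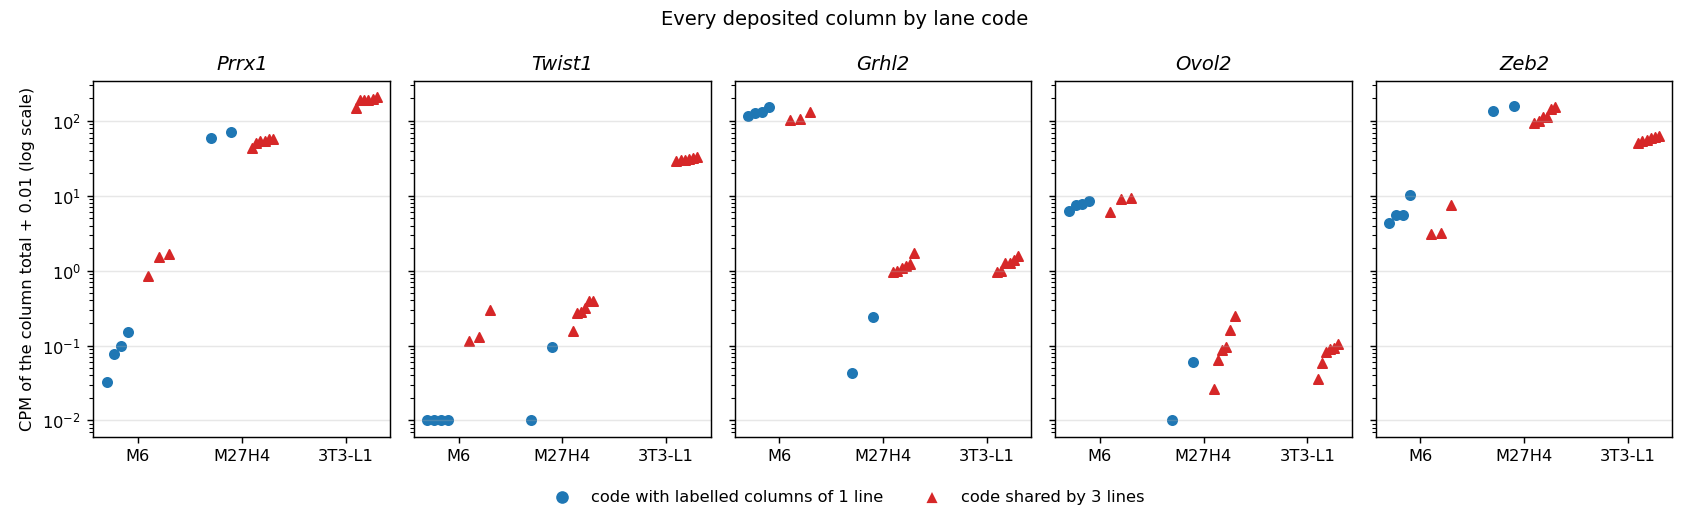
CPM of the column total + 0.01 (log axis) for 5 genes in every deposited column, by line and kind of lane code. Circles are columns of the codes whose labelled samples come from 1 line and triangles are columns of the codes shared by 3 lines. Prrx1 and Twist1 in M6, and Grhl2 in M27H4, are lower in the circles, and Zeb2 in M27H4 overlaps between both kinds.

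Levels between genes can be compared per kilobase (kb) of exon. In M6 controls Grhl2 led with 14.9 CPM per kb, followed by Ovol2 at 4.01 and Snai1 at 3.54, whose replicates overlapped, then Twist2 at 2.31 and Ovol1 at 1.35. Snai2, at 0.413, Zeb2, at 0.220, and Zeb1, at 0.162, came far below. In M27H4 controls Zeb2 at 6.83 ± 1.00 (SD, n = 3), Snai2 at 5.95 ± 0.785 and Prrx1 at 5.44 ± 0.877 had replicates that overlapped, above Twist2 at 1.79 and Zeb1 at 0.939. The other 5 were lower there, with Twist1 the highest of them at 0.117. In 3T3-L1 controls Twist1 at 19.3 ± 0.350 (n = 2) and Prrx1 at 17.9 ± 0.769 led, then Snai2 at 9.80, Twist2 at 7.86, Zeb1 at 4.40, Snai1 at 3.35 and Zeb2 at 2.79.

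Genes that these factors control were read beside them. Of 33 epithelial target and junction genes, 32 were lower in M27H4 than in M6, beside 15.0% of all genes tested. The median log2 difference was -5.50 against 0.02 over all genes. In 3T3-L1 against M6, 32 were lower, beside 18.9% of all genes, with a median of -7.37 against 0.05. M27H4 nevertheless kept Cdh1, which encodes E-cadherin, at 134.3 CPM ± 29.9 (n = 3), against 610.9 ± 196.3 (n = 2) in M6 and 2.36 ± 0.515 (n = 2) in 3T3-L1. It was 4.55-fold lower than in M6 (edgeR adjusted p = 8.7e-05). Epcam, by contrast, held 4.31 CPM ± 4.06 in M27H4 and 730.6 ± 151.1 in M6, and the splicing factor Esrp1 held 0.671 ± 0.582 and 113.8 ± 11.2. The M27H4 control column of the M27H4 code held 3 Epcam and 0 Esrp1 counts. Esrp2, the gene opposite Esrp2-as, was at 13.3 ± 1.89 in M27H4 and 62.3 ± 4.97 in M6. Cdh1 and Esrp2 were 2 of the 17 genes of this list that were lower in 3T3-L1 than in M27H4, beside 17.8% of all genes. In that comparison 1 gene of the list was higher, beside 18.9% of all genes.

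Mesenchymal genes moved in both directions between M27H4 and M6. Of 30, 11 were higher and 6 lower in M27H4 (median log2 difference 1.42), beside 15.2% and 15.0% of all genes, so that the lower ones were near the background. In 3T3-L1 against M6, 23 were higher and 2 lower (median 2.91), beside 20.5% and 18.9% of all genes. Vim, the gene for vimentin, was at 429.3 CPM ± 74.0 (n = 2) in M6, 1109 ± 202 (n = 3) in M27H4 and 1546 ± 14.3 (n = 2) in 3T3-L1. Cdh2, the gene for N-cadherin, was lowest in M27H4, at 6.31 CPM ± 2.52, against 22.6 ± 4.65 in M6 and 88.4 ± 19.6 in 3T3-L1. Pdgfra, a receptor of fibroblasts, was higher than in M6 by a log2 difference of 5.71 in M27H4 and 4.06 in 3T3-L1, and Lox, a collagen cross-linking enzyme, by 6.64 and 8.04.

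Other transcription factors of both classes moved in both directions. Of 15 other epithelial factors tested, 6 were lower and 2 higher in M27H4 than in M6, where 15.0% of all genes were lower and 15.2% higher. Elf3 (log2 difference -5.67, SE 0.354) was among the lower ones, and Gata3, a factor of luminal mammary cells, was higher by 2.54 (SE 0.291, edgeR adjusted p = 1.83e-05). Of 17 other EMT factors tested, 5 were higher and 3 lower in M27H4 than in M6, the lower count being near the background, with log2 differences of 1.71 for Prrx2, -2.40 for Sox9 and -2.65 for Snai3, a relative of Snai1. In 3T3-L1 against M6, 6 were higher and 6 lower, beside 20.5% and 18.9% of all genes, with Foxc2 at 8.58 and Foxq1 at -7.55. Of 17 inhibitors and stability regulators of these proteins, 4 were higher and 2 lower in M27H4 than in M6, beside 15.2% and 15.0% of all genes. The median log2 difference of this list was 0.015. Id2 and Id4, which bind helix-loop-helix factors, were among the higher ones, by 3.65 and 3.47, and Fbxo45 was lower, at -0.826. Id2 was lower in 3T3-L1 than in M27H4 by a log2 difference of -4.10. Of 18 corepressors and chromatin partners, 2 were higher and 3 lower in M27H4 than in M6, near the 15.2% and 15.0% of all genes, and the median log2 difference was -0.05.

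The miR-200 hairpins were covered in 1 line only. The entries of Mir200b, Mir429, Mir141, Mir200c and Mir200a held 24, 19, 11, 10 and 5 counts in M6, 69 in all, and 0 in M27H4 and in 3T3-L1. A count of 0 allows up to 0.00381 CPM of the 787160447 counts of M27H4 and up to 0.00435 CPM of the 690248617 counts of 3T3-L1, by counting error only. These libraries were not made for small RNAs, so the counts describe reads over the hairpins and not mature microRNAs, and none of them passed the filter.

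The second comparison asked what Esrp2-as knockdown did in M6. Zeb1 rose 3.29-fold, and it was the only 1 of the 10 genes called. Snai2 and Zeb2 were also higher in both knockdown replicates than in both controls, without passing the test over all genes. The epithelial factors Grhl2, Ovol1 and Ovol2 did not pass it either. In this comparison 0.137% of all genes tested were called. The replicates of 5 of the 10 genes did not overlap, with Zeb1, Zeb2 and Snai2 higher and Snai1 and Ovol2 lower, while 26.4% of all genes tested had groups that did not overlap, so that such separation was common in 2 against 2 replicates.

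Control replicates held 1.43 and 1.89 CPM of Zeb1, and knockdown replicates 6.37 and 4.69 CPM. The log2 difference was 1.72 (SE 0.234, 95% interval 1.21 to 2.22, edgeR adjusted p = 0.0125). By column, controls held 1.55 and 1.54 CPM under the M6 code and 1.65 and 2.00 under shared codes. Knockdown columns held 6.84 and 3.81 under the M6 code and 4.99 under a shared code. Every knockdown column was thus above every control column under both kinds of code. With the M6 columns of the M6 code only, the log2 difference was 1.79 (adjusted p = 0.0119). The call was lost without control replicate 1 (1.62, adjusted p = 0.128), without knockdown replicate 1 (1.49, 0.106), in a fit of the 2 M6 groups alone (1.77, 0.488) and with the columns of the M6 and M27H4 codes alone (1.81, 0.514). Zeb1 in the knockdown stayed below M27H4, where it was at 9.64 CPM ± 1.09 (n = 3).

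For Snai2 the controls were at 1.01 and 0.656 CPM and the knockdown at 3.69 and 1.57. The log2 difference of 1.67 (SE 0.368, 95% interval 0.88 to 2.46) had an unadjusted p of 0.000539 and an adjusted p of 0.157 (edgeR). The size rested on knockdown replicate 1, without which it was 0.96. Snai2 was called with DESeq2 (adjusted p = 0.00535), beside 1.1% of all genes, and with the replicate number as a block (0.0103), beside 1.38% of all genes. It was also called with no filter on low counts (0.0383) and without knockdown replicate 2 (0.0137). Zeb1 was called in these fits too.

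For Zeb2 the controls were at 5.18 and 3.61 CPM and the knockdown at 9.62 and 6.97. The log2 difference was 0.92 (SE 0.264, 95% interval 0.35 to 1.49, adjusted p = 0.356, edgeR). By column the groups met, at 5.60 CPM in the highest control column and 5.58 in the lowest knockdown column. In both groups replicate 1 was the higher one for Snai2 and Zeb2.

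**Figure D4:**
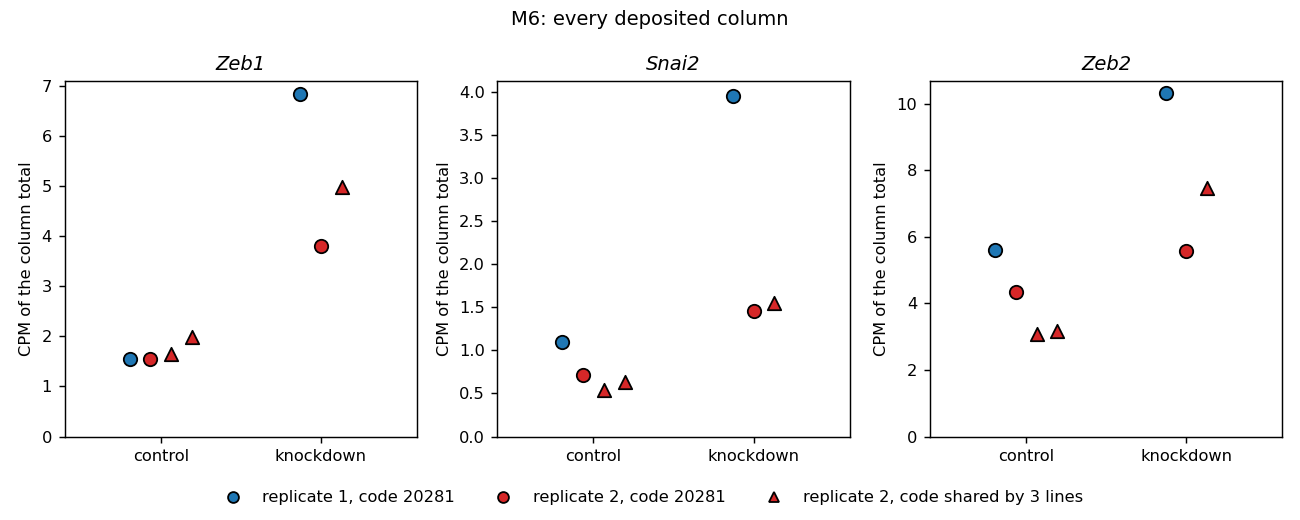
CPM of the column total for Zeb1, Snai2 and Zeb2 in every M6 column (vertical axes from 0). Blue marks replicate 1, red replicate 2, circles the M6 code and triangles codes shared by 3 lines. Zeb1 and Snai2 are separate between control and knockdown in all columns, with the highest values in knockdown replicate 1, and Zeb2 touches at 5.60 and 5.58 CPM.

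The remaining 7 genes had log2 differences from -1.18 (Twist1) to 0.53 (Twist2) after knockdown, and all had an unadjusted p over 0.05. Grhl2 was at 140.0 and 117.3 CPM without knockdown and at 118.3 and 131.7 with it, so the groups overlapped. Its log2 difference was -0.04 with a wide interval of -1.96 to 1.87, from a fit whose spread is shared with M27H4, where Grhl2 ranged from 0.0325 to 1.21 CPM. Ovol1 was at 4.87 and 4.57 CPM, and with knockdown at 2.55 and 4.73 (log2 difference -0.37). Ovol2 held 7.21 and 9.73 and then 5.84 and 6.89 CPM (-0.41), and Snai1 5.40 and 6.09 and then 3.97 and 5.22 CPM (-0.32). Control replicates held 4.56 and 10.1 CPM of Twist2, and knockdown replicates 8.61 and 12.7. Prrx1 and Twist1 had 1 and 0 counts in knockdown replicate 1 and 3 and 0 in control replicate 1, and their fitted differences took both signs as replicates were left out.

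**Figure D5:**
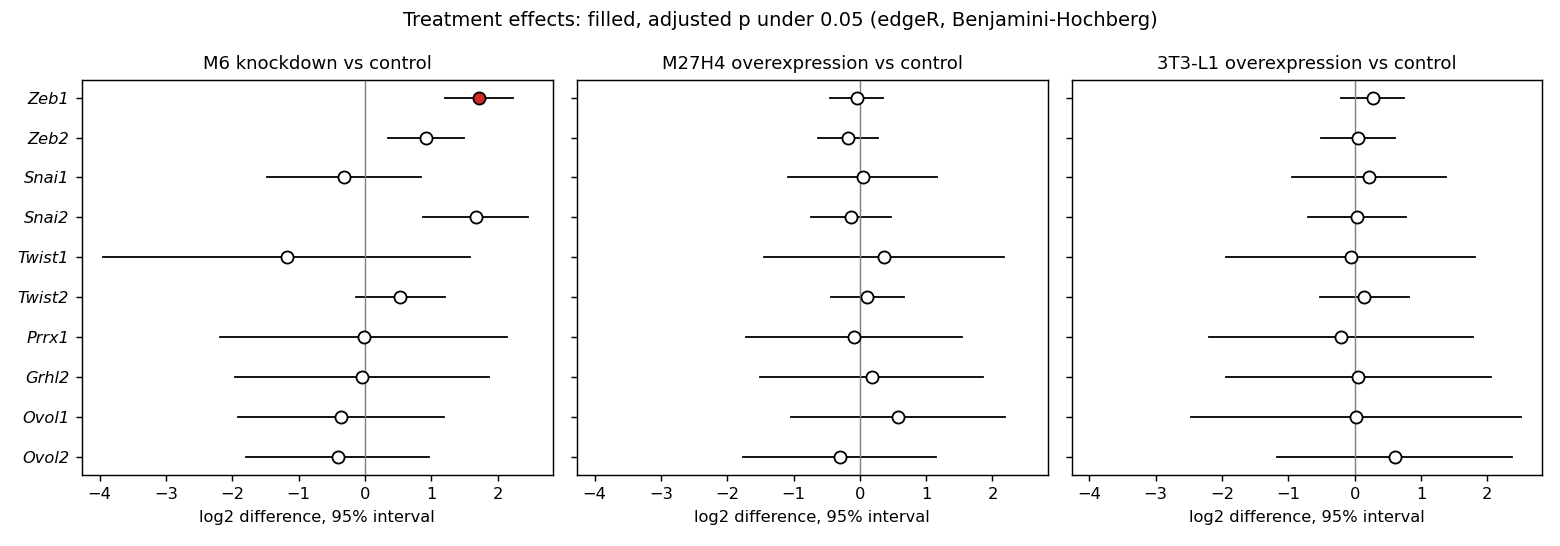
Log2 difference between treated and control replicates for each gene with its 95% interval, in the 3 lines. The filled point, with an edgeR adjusted p under 0.05, is Zeb1 in M6 at 1.72, and all intervals in M27H4 and 3T3-L1 include 0.

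The genes read beside these factors did not pass the test in M6. None of the 33 epithelial target and junction genes and none of the 30 mesenchymal genes was called, with median log2 differences of -0.08 and -0.16 against -0.03 over all genes. Cdh1 was at 749.6 and 472.1 CPM without knockdown and 482.4 and 363.3 with it, groups that overlapped (log2 difference -0.53, SE 0.331, adjusted p = 0.963, edgeR). Vim was at -0.63 (SE 0.212, adjusted p = 0.525). None of the other transcription factors, corepressors or stability regulators listed was called.

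The third comparison asked the reverse, what Esrp2-as overexpression did in M27H4 and 3T3-L1. None of the 10 genes passed the test in either line with edgeR, none had an unadjusted p under 0.05, and none was called with DESeq2 or limma voom. Of all genes tested, edgeR called 0.00942% in M27H4 and 0.00471% in 3T3-L1, and DESeq2 called 0.0283% and 0.0565%. No gene of the context lists was called in either line.

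In M27H4, no gene of the 10 had separate groups, where 5.1% of all genes tested did. Zeb2 was at 134.8, 157.0 and 117.0 CPM with the empty vector and at 151.6, 96.9 and 114.1 with overexpression, with a log2 difference of -0.17 (95% interval -0.63 to 0.28). Zeb1 held 8.39, 10.3 and 10.2 and then 10.3, 7.92 and 9.79 CPM, a log2 difference of -0.05 (95% interval -0.44 to 0.35). Snai2 held 12.6, 13.2 and 10.2 and then 9.81, 12.96 and 10.1 CPM, a log2 difference of -0.13 (95% interval -0.73 to 0.47). For these 3 genes a change of 2-fold in either direction lay outside the interval of this fit, which has no replicate block. Prrx1 was at 60.2 CPM ± 9.71 and 56.4 ± 2.26 (n = 3 each), with an interval of -1.72 to 1.54. Grhl2 was at 0.805 ± 0.669 and 0.888 ± 0.591 CPM and stayed far below its level in M6. Snai1, Twist1, Ovol1 and Ovol2 held 0 to 64 counts in each replicate, too few to show a change of moderate size.

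In 3T3-L1, Zeb1 was at 44.5 and 45.9 CPM with the empty vector and at 56.6 and 52.3 with overexpression, and Snai1 at 5.49 and 5.35 and then at 6.24 and 6.35 CPM. These 2 genes were higher and Twist1 and Prrx1 lower without overlap, 4 of 10 genes where 23.2% of all genes tested had groups that did not overlap. The log2 differences were 0.27 for Zeb1 (95% interval -0.21 to 0.75), 0.22 for Snai1, -0.06 for Twist1 and -0.20 for Prrx1, and the edgeR adjusted p was 1 for each. Zeb2 was at 55.5 CPM ± 8.43 and 57.3 ± 4.60 (n = 2 each), and Snai2 at 19.8 ± 2.50 and 20.3 ± 0.848. The epithelial factors remained near the floor, with Grhl2 at 1.25 ± 0.406 and 1.29 ± 0.00134 CPM and with 3 to 18 counts per replicate for Ovol1 and Ovol2.

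The difference between 2 treatment effects was tested as well. The effect of knockdown in M6 less that of overexpression in M27H4 was 1.77 for Zeb1 (SE 0.295, 95% interval 1.13 to 2.40, edgeR adjusted p = 0.101), 1.80 for Snai2 (SE 0.459, adjusted p = 0.489) and 1.10 for Zeb2 (SE 0.337, adjusted p = 0.711). None of the 10 genes was called, where 0.0283% of all genes tested were. The unadjusted p was under 0.05 for these 3. Zeb1 was called with DESeq2 (3.12e-05, beside 0.419% of all genes) and, with the replicate number as a block, both Zeb1 (0.0434) and Snai2 (0.0356) were called, beside 0.527% of all genes. Zeb1 was also called with no filter on low counts (0.0181). Without M6 knockdown replicate 2 both were called as well, Zeb1 at 1.97 (0.0378) and Snai2 at 2.30 (0.0457). Knockdown is meant to lower Esrp2-as and overexpression to raise it, so 2 lines with the same response would also differ in effect. This difference of effects therefore cannot show whether M6 and M27H4 respond differently. The knockdown and overexpression also differ in line and in method, which cannot be told apart here. Between the 2 overexpression effects none of the 10 was called by edgeR or DESeq2, where they called 0.00471% and 0.0518% of all genes tested.

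The genes were also compared by correlation of log2 CPM across the 14 biological replicates. These share line and treatment within groups, and lane codes between groups. Grhl2, Ovol1 and Ovol2 ran together (Pearson r from 0.978 to 0.99) and against Zeb2 (-0.962, -0.942 and -0.958). They ran as closely against Snai2 (-0.902, -0.961 and -0.943) and Prrx1 (-0.938, -0.955 and -0.955). Against Zeb1 the values were -0.66, -0.756 and -0.729. Zeb1 ran with Snai2 (0.875), Twist1 (0.888) and Prrx1 (0.83) and less closely with Zeb2 (0.548). Snai2 and Prrx1 also ran with Zeb2 (0.861 and 0.849), and Snai1 ran against Zeb2 (-0.724). These values mostly describe the 3 lines, since the differences between lines are far larger than those within them. By the same measure, the genes most like Zeb1 were Procr (0.982), Cth (0.981) and Dzip1l (0.979), those most like Zeb2 were Slc41a2 (0.991), Pik3r5 (0.99) and Jcad (0.989), and those most like Grhl2 were Atp8b1, Bcas2 and Cgn (0.997 each). Snai2 was most like Dpy19l3 (0.985), Twist1 like Xlr3b (0.999), Twist2 like Dusp12 (0.985), Prrx1 like Colec12 and Lox (0.995 each), Ovol1 like Pitpnm3 (0.998) and Ovol2 like Hsp25-ps1 and Clec12a (0.998 each).

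The transcript table gave the isoforms behind these genes. Zeb1-201 held 92.8% ± 1.55 of Zeb1 counts in the M6 knockdown (n = 2), 95.1% ± 2.07 in M27H4 controls (n = 3) and 75.3% ± 5.31 in 3T3-L1 controls (n = 2). In M6 controls its share ran from 55.1% to 96.7% between columns, of 651 counts in all, so the share did not separate control from knockdown. Zeb2-214 held most Zeb2 counts in each line on average, 56.1% ± 9.84 in M27H4 controls and 65.8% ± 7.37 in 3T3-L1 controls, but ran from 25.7% to 74.0% between M27H4 control columns. Zeb2-212, in which the microRNA sites above were read, held 10.5% ± 9.68 in M27H4 controls. The Prrx1 transcripts Prrx1-201, Prrx1-202 and Prrx1-204 held 29.3%, 34.5% and 35.9% of its counts in 3T3-L1 controls. Snai1, Snai2, Twist1 and Ovol1 have 1 transcript each in the table.

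Several of these genes overlap others, and the strand setting of the counting is not given in the sources used here, so reads could be assigned to either partner. Zeb2os, antisense to Zeb2, held 51 and 62 counts in the M6 groups and 820 to 868 in each of the other 4 groups, against 1362 to 52601 for Zeb2. Gm16136, antisense to Grhl2, held 3217 and 2375 counts in M6 against 42902 and 29121 for Grhl2. Gm10125, opposite Zeb1, held 0 counts in both M6 groups. Gm31166, opposite Ovol1, held 92 and 107 counts in M27H4 against 31 and 39 for Ovol1, whose low values there are uncertain for that reason.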

How the data were processed

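Total RNA was isolated with RNeasy columns, depleted of ribosomal RNA with Ribo-Zero Gold and made into strand-specific SureSelect libraries, per the labels' protocols. Per the submitters' processing notes, the authors used cutadapt, HISAT2, StringTie and edgeR with the mm10 (GRCm38) genome. Versions, the annotation release and the counting strand are not given in the sources used here. As deposited, the values per gene and per transcript are StringTie's expected counts, given as whole numbers. The 2 deposited normalised tables were not used.

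The 21 columns were matched to samples by the labels, and technical replicates were summed to 14 biological replicates in 6 groups. Gene names, coordinates and exon lengths came from GENCODE M21 (GRCm38). All groups were fitted together with edgeR 4.0.16 (R 4.3.3): filterByExpr by group, TMM factors, robust quasi-likelihood test, 8 residual degrees of freedom, Benjamini-Hochberg adjustment over 21237 genes and calls at an adjusted p under 0.05. Levels are CPM of the total times the TMM factor. The common biological coefficient of variation of the fit was 0.323. On simulated counts for M6 knockdown against control (20527 genes tested), the test recovered 94 of 100 genes changed 4-fold and 95 of 100 changed 8-fold, with 9 unchanged genes called. The changed genes were drawn above a floor in M6 controls that Snai2, Prrx1 and Twist1 did not reach. The simulation therefore does not cover these genes, or changes below 4-fold. Its counts were drawn independently for each sample, so it holds no deviations shared through lane code or replicate number. In the real data Esrp2-as itself, 3.77-fold lower after knockdown, was not called (edgeR adjusted p = 0.363). Intervals of counts and limits for 0 (3 counts) cover counting error only.

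Alternatives were RLE factors, no factors, no filter, DESeq2 1.42.0, limma 3.58.1 voom, a replicate block, only the groups compared, each replicate left out, and subsets of lane codes. In M27H4 same-numbered replicates deviated together (r = 0.353, 0.249 and 0.24 over genes). They also shared lane codes, so this check cannot tell pairing from the code. The main fit used no replicate block in any line, and the block was run as an alternative. In M6 and 3T3-L1, with 2 pairs each, the labels state no shared litter, batch or day. The numbers were therefore not taken to pair the samples. Same-numbered replicates nevertheless shared lane codes, in full in 3T3-L1 and for replicate 1 in M6. Replicate 2 of both M6 groups shared the M6 code in part, with its other columns under codes that differed between the groups. The 10 genes and the context lists were chosen with earlier results of these data known, and the microRNA site search and the subset of codes with 1 labelled line were added after seeing the data. Genes named are the 10, up to 3 called genes with the smallest p from each context list, Cdh1, Epcam, Esrp1, Vim and Cdh2, and those most like each of the 10, of which some are not reported here. Overlapping genes were picked by position, and those printed were chosen after their counts were seen. Protein sequences were not used here.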

Additional observations from a re-analysis of the deposited data

How the results depend on the processing

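All called line differences of the 10 genes kept their direction and call under every alternative run. In addition, 2 differences of M27H4 from M6 gained a call, Twist1 with the M6 code only and Twist2 without M6 control replicate 1. For 3T3-L1 against M27H4, Snai2 and Prrx1 gained a call with limma voom and with only those groups in the fit. The 60 levels moved by less than 1 SD without TMM factors. For knockdown in M6, edgeR called 29 genes and 1 of the 10; these numbers were 64 and 2 with no filter, 233 and 2 with DESeq2, 293 and 2 with the replicate block, 0 and 0 with only the M6 groups in the fit, 0 and 0 with only the codes of 1 labelled line, and 6 to 60 and 0 to 2 with each replicate left out. Limma voom called 74 genes. For overexpression in M27H4, 2 genes became 6 with DESeq2, 0 with voom, 1 with the replicate block, 1 with only its groups and 1 to 2 with replicates left out. In 3T3-L1, 1 gene became 2 with no filter, 12 with DESeq2, 0 with the replicate block, 4 with only its groups and 0 to 5 with replicates left out. Between M27H4 and M6, 6420 genes became 2371 with only the codes of 1 labelled line, which leaves fewer samples, and 5256 to 6017 with replicates left out.

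For the difference of the M6 and M27H4 effects, 6 genes and 0 of the 10 became 26 and 1 with no filter, 89 and 1 with DESeq2, 112 and 2 with the replicate block, 3 genes with only those groups, and 0 to 26 and 0 to 2 with replicates left out. For the difference of the overexpression effects, 1 gene became 0 with RLE factors, 0 without factors, 11 with DESeq2, 0 with voom, 0 with the replicate block, 0 with only those groups and 0 to 5 with replicates left out. In M6 and 3T3-L1 same-numbered replicates (r = 0.334 and 0.245) also share lane codes, in M6 in full for replicate 1 and in part for replicate 2. Whether the block acts through the code was not tested. Beside Snai2 in M6 and Zeb1 and Snai2 in the difference of effects, the block changed no call of the 10.

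Sign changes were in differences that passed no test in the main fit. Among them, Twist2 in M27H4 against M6 was called without M6 control replicate 1. In M6, Prrx1 was at 0.0065 with RLE factors, 0.015 with DESeq2, 0.27 with the M6 code only and 0.27 with the codes of 1 labelled line. Snai1 in M27H4 was at -0.21 with voom and -0.042 with only its groups, Ovol1 in 3T3-L1 at -0.051 with voom, and Snai1 between 3T3-L1 and M6 at 0.026 with the M6 code only. With replicates left out, M6 values ran from -7.12 to 5.83 for Twist1, -4.89 to 3.35 for Prrx1, -0.15 to 0.16 for Grhl2 and -0.90 to 0.010 for Ovol1. In M27H4 they ran from -0.14 to 0.065 for Zeb1, -0.41 to 0.39 for Snai1, -0.063 to 0.81 for Twist1, -0.20 to 0.031 for Prrx1, -0.31 to 0.54 for Grhl2 and -2.84 to 0.16 for Ovol2. In 3T3-L1 they ran from -0.12 to 0.21 for Zeb2, -0.10 to 0.17 for Snai2, -0.25 to 0.41 for Grhl2 and -1.12 to 1.01 for Ovol1. Between lines they ran from -0.83 to 0.33 for Twist2 in M27H4 against M6, -0.16 to 0.021 for Snai1 in 3T3-L1 against M6, and -2.26 to 0.15 for Ovol1 in 3T3-L1 against M27H4. The cause was not tested.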
